A study of Homo sapiens with 14 samples.

Results

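The replication-dependent histone genes on human chromosome 6 were examined for peaks of the BAF (BRG1/BRM-associated factor) chromatin remodelling complex and of the transcription factor SOX2. Members were all protein-coding genes of GENCODE release 44 that lie on chr6 between 25 and 29 Mb of hg38 and whose names start with H1-, H2AC, H2BC, H3C or H4C. This gave 55 of the 20033 protein-coding genes on chromosomes 1 to 22, X and Y, with 6 genes for H1, 12 for H2A, 15 for H2B, 10 for H3 and 12 for H4. Each gene was given a window of its annotated body with 500 bp on each side, and a peak that shared at least 1 base with the window was assigned to it. The choice was by name and position and used no peak value, although earlier results of these data were known when it was made.

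All libraries were made from WIBR3, an established line of human embryonic stem cells (hESCs), by chromatin immunoprecipitation and sequencing (ChIP-seq). The naïve cells were kept in 5i/L/A, a medium of kinase inhibitors with LIF and activin, and the primed cells in conventional hESC medium. Both were grown on mouse feeder cells, and no genotype or treatment other than the culture state separates the groups. Antibodies were raised against BRG1 (SMARCA4) and BRM (SMARCA2), which are the alternative ATPases of BAF, against BAF155 (SMARCC1), a core scaffold subunit, and against SOX2. The BAF libraries were read as single ends and the SOX2 libraries as paired ends at another facility, so the antibody families also differ in their sequencing.

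Histone genes of this kind supply the protein that packages newly copied DNA. They are switched on at the start of S phase, within nuclear histone locus bodies that form around the coactivator NPAT, and their messages carry no poly(A) tail and end in a short stem-loop that is bound by SLBP. H2A, H2B, H3 and H4 form the octamer of the nucleosome, whereas H1 sits on the linker DNA between nucleosomes. Many H2A and H2B genes stand head to head and share the sequence between their start sites.

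The peak lists differed in length, and each group had 1 list. On the chromosomes above, the lists of naïve BRG1, BAF155 and BRM held 57884, 62338 and 17413 peaks, and those of primed BRG1 and BAF155 held 15611 and 58352. The SOX2 lists held 1940 peaks in naïve and 9290 in primed cells, and both SOX2 libraries of a state came with the same coordinates and were counted as 1 sample. The lists carry no read counts. Read totals that the study gives for the BAF libraries were not used here, although they place primed BRG1, the shortest BAF list compared, as the most deeply sequenced. A gene without a peak is one below the authors' calling threshold. As a check of the labels, 4 of 6 naïve marker genes (KLF17, DPPA3, DPPA5 and SUSD2) had a BRG1 or BAF155 peak in naïve cells only, and 1 of 6 primed marker genes (THY1) in primed cells only. The other 7 marker genes had such a peak in both states. No statement below has a replicate error or a p-value, because no group has a second independent list.

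The members fell into 4 groups along the chromosome, taking a gap of more than 200 kb as the start of a new group. These were 2 genes at 25.72 to 25.73 Mb, 32 genes at 26.02 to 26.29 Mb, 5 genes at 27.13 to 27.15 Mb and 16 genes at 27.81 to 27.89 Mb. All 55 have a canonical transcript of 1 exon, between 386 and 797 bp long. The annotated gene body is longer than 1 kb in 11 members, up to 37610 bp in H2BC4, because other transcripts of the gene run further. The median gene body was 495 bp in the members against 27471 bp over all protein-coding genes, so counts within 500 bp of the start site are given beside those over the gene window. The windows overlapped into 36 separate loci, and 11 pairs of neighbouring members have divergent start sites 193 to 978 bp apart.

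Promoter sequence is shown for the member of each class with the highest naïve BAF155 fold enrichment and for H1-4, the member with the highest primed BAF155 fold, to set the letters of each class side by side. The naïve BAF155 peaks that chose H1-3, H2BC5, H3C1 and H4C2 lie after the start, outside these letters. Each line gives the 250 bases before the start site, 5′ to 3′ along the gene, from the RefSeq promoter table of GRCh38.p14, which is the hg38 sequence. Capitals mark TATAAA (the TATA box), CCAAT (the CCAAT box) and ATTTGCAT (the octamer bound by POU factors), on either strand.
H1-3 (chr6:26234988-26235237, minus strand): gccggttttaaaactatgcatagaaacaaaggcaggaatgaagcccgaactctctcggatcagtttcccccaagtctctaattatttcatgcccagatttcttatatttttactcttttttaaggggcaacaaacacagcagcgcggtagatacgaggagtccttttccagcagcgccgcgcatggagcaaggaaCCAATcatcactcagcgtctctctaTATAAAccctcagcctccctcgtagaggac
H2AC16 (chr6:27865067-27865316, plus strand): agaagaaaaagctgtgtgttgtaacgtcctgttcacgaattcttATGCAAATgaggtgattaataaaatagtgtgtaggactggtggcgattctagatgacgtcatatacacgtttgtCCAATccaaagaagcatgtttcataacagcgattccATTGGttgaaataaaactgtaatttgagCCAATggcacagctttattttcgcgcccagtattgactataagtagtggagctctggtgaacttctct
H2BC5 (chr6:26157872-26158121, plus strand): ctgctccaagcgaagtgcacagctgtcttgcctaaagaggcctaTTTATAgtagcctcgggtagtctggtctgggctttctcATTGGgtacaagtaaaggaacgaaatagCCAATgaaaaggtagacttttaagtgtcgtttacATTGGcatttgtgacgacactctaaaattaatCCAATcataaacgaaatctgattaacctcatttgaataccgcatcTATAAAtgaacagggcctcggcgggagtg
H3C1 (chr6:26020201-26020450, plus strand): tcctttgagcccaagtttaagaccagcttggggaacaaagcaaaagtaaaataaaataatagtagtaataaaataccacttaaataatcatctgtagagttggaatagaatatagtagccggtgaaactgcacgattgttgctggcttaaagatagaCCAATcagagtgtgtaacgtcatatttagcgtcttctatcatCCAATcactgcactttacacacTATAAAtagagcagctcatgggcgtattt
H4C2 (chr6:26027284-26027533, minus strand): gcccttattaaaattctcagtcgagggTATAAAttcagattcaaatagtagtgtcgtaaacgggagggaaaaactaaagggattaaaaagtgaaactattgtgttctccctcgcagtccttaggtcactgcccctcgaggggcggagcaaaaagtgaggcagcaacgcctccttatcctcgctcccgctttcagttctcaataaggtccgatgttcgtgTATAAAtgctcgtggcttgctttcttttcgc
H1-4 (chr6:26156079-26156328, plus strand): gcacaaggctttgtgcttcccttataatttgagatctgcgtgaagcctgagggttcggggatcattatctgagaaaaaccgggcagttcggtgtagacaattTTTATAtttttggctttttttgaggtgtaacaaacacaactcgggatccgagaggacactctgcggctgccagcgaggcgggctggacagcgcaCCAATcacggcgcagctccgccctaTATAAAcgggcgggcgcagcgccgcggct

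The sequence between the start sites of a divergent pair is shown for the 2 pairs in which a single peak covered both starts in naïve BRG1 and in primed BAF155, with the same capitals, along the plus strand.
H2BC8-H2AC8 (chr6:26216689-26216920, plus strand): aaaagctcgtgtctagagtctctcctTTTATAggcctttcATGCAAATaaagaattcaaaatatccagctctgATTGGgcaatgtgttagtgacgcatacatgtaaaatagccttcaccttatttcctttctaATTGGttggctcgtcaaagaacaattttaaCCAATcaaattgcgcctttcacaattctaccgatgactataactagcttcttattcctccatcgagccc
H2AC15-H2BC15 (chr6:27838376-27838568, plus strand): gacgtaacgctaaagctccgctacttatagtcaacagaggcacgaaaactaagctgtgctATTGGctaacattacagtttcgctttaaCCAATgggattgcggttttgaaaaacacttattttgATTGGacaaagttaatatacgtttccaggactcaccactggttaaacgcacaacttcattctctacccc

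The table held promoters for 50 of the 55 members, and H4C1, H4C3, H2AC12, H3C11 and H3C12 had no entry. Within 250 bp before the start, the octamer ATTTGCAT stood in 21 of the 50 (42.0%) against 1.63% of all 35116 promoters of the table. It was found in 9 of 11 H2A and 12 of 15 H2B promoters and in none of the 6 H1, 8 H3 and 10 H4 promoters. In 6 H2B genes the octamer ran along the gene strand between 38 and 49 bp before the start, and in 5 more between 97 and 123 bp. H2BC5, whose promoter is printed above, is among the 3 H2B genes with no octamer. CCAAT stood in 43 of 50 members (86.0%) against 32.0% of all promoters, and it was present in all H1, H2A, H2B and H3 promoters but in only 3 of 10 H4 promoters. TATAAA stood in 33 of 50 (66.0%) against 10.7%, and in 27 members it ran along the gene strand between 23 and 42 bp before the start. None of the 3 motifs overlapped another in a member promoter. In some head-to-head pairs 1 octamer lies before both genes, and the counts of promoters above hold it for each of them. These pairs are H2AC1-H2BC1, H2BC4-H2AC6, H2AC7-H2BC7, H2BC8-H2AC8, H2BC11-H2AC11, H2AC14-H2BC14 and H2AC17-H2BC17. The octamer is marked in the H2BC8 and H2AC8 line above, whereas the H2AC15 and H2BC15 line has none. In the former it lies 41 to 48 bp before the H2BC8 start and 185 to 192 bp before that of H2AC8.

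At the other end of the genes, the consensus of the histone 3′ stem-loop was found within 150 bp of the canonical transcript end in all 55 members. The commonest form, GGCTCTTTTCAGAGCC, was shared by 31 members, and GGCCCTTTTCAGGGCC by 9 and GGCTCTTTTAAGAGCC by 8. This letter check holds also for the 4 members without a BAF peak that are described below. The match is one of letters and says nothing of whether a gene is expressed.

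Most members carried BAF155 in primed cells and fewer did in naïve cells. Primed BAF155 peaks lay in the windows of 47 members, or 85.5%, against 78.2% of all protein-coding genes. Naïve BAF155 peaks lay in the windows of 25 members (45.5%), below the 75.6% of all genes. Naïve BRG1 peaks were assigned to 26 members (47.3%, all genes 75.1%) and primed BRG1 peaks to 7 (12.7%, all genes 40.1%). The naïve BRM list reached 2 members (3.64%, all genes 34.9%). SOX2 had no peak at any member in naïve cells, where 4.30% of all genes had one, and peaks at 3 members in primed cells (5.45%, all genes 16.3%). The share of members was thus below that of all genes in every list except primed BAF155, in which it was above. That position did not hold for stronger peaks, since with −log10 q of at least 3 primed BAF155 reached 16.4% of members and 50.6% of all genes, and at a fold of at least 4 it reached 0 and 21.8%.

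**Figure D1:**
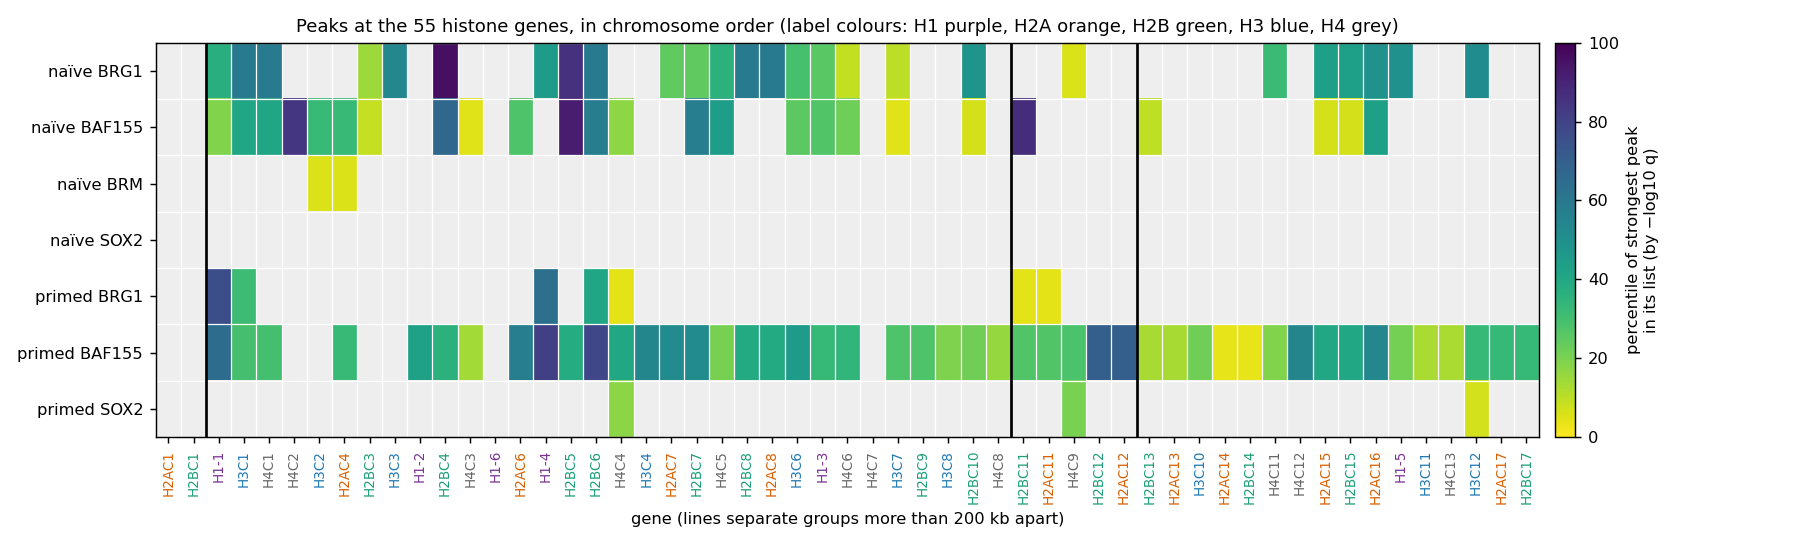
Peaks at the 55 histone genes (columns, in chromosome order) in the 7 peak lists (rows), coloured by the percentile of the gene's strongest peak within its own list by −log10 q, with grey for no peak. The primed BAF155 row is filled for 47 genes, against 25 in naïve BAF155, 26 in naïve BRG1 and 7 in primed BRG1.

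Shares were also taken close to the start sites, in windows of equal length. Within 500 bp of the start, primed BAF155 peaks were found at 46 members (83.6%) against 67.7% of all genes. Naïve BAF155 peaks were found there at 15 members (27.3%) and naïve BRG1 peaks at 20 (36.4%), and 58.9% of all genes had a peak of either list. Primed BRG1 kept the same 7 members (12.7%) against 27.6%. For naïve BRM the count was 1 (1.82%) against 14.7%, for naïve SOX2 it was 0 against 0.110%, and for primed SOX2 it was 2 (3.64%) against 2.39%. Near the start the primed SOX2 share thus rested on 2 members and was close to that of all genes. Over the gene window it was below. H3C1 was the only member with a peak within 500 bp of the start in all 4 lists of BRG1 and BAF155.

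The other 44 protein-coding genes whose bodies lie in the same 4 Mb interval gave a reference for the region. Of these, 54.5% had a naïve BAF155 peak in their window, 45.5% a naïve BRG1 peak, 15.9% a primed BRG1 peak and 13.6% a naïve BRM peak. Thus the naïve BRG1 and primed BRG1 shares of the histone genes (47.3% and 12.7%) lay near those of their neighbours, and not near those of all genes. The widest gap was that of primed BAF155, with 65.9% of the neighbours and 85.5% of the members. Within 500 bp of the start, the primed BAF155 shares were 54.5% of the neighbours and 83.6% of the members.

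Of the 15 H2AC, H2BC, H3C and H4C genes elsewhere in the genome, 6 had a naïve BRG1 peak in the window, 6 a naïve BAF155 peak, 7 a primed BAF155 peak and none a primed BRG1 peak. Their primed BAF155 share of 46.7% was lower than that of the chromosome 6 members. All 7 genes with such a peak had one within 500 bp of the start, and the other 8 had no BAF155 peak in either state. Uniqueness of sequence was not computed for these 15 genes, so the lower share cannot be set against the members on equal terms. The 11 genes taken by name as replication-independent histone genes encode variants such as H2A.Z and H3.3. All 11 had a primed BAF155 peak and a naïve BRG1 peak within 500 bp of the start, and 7 had a primed BRG1 peak there. The 14 genes of histone gene transcription and message processing, among them NPAT and SLBP, had a primed BAF155 peak in all 14 windows and naïve BRG1 and naïve BAF155 peaks in 13 each. In NPAT and SLBP the BRG1 peak at the start was present in both states.

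**Figure D2:**
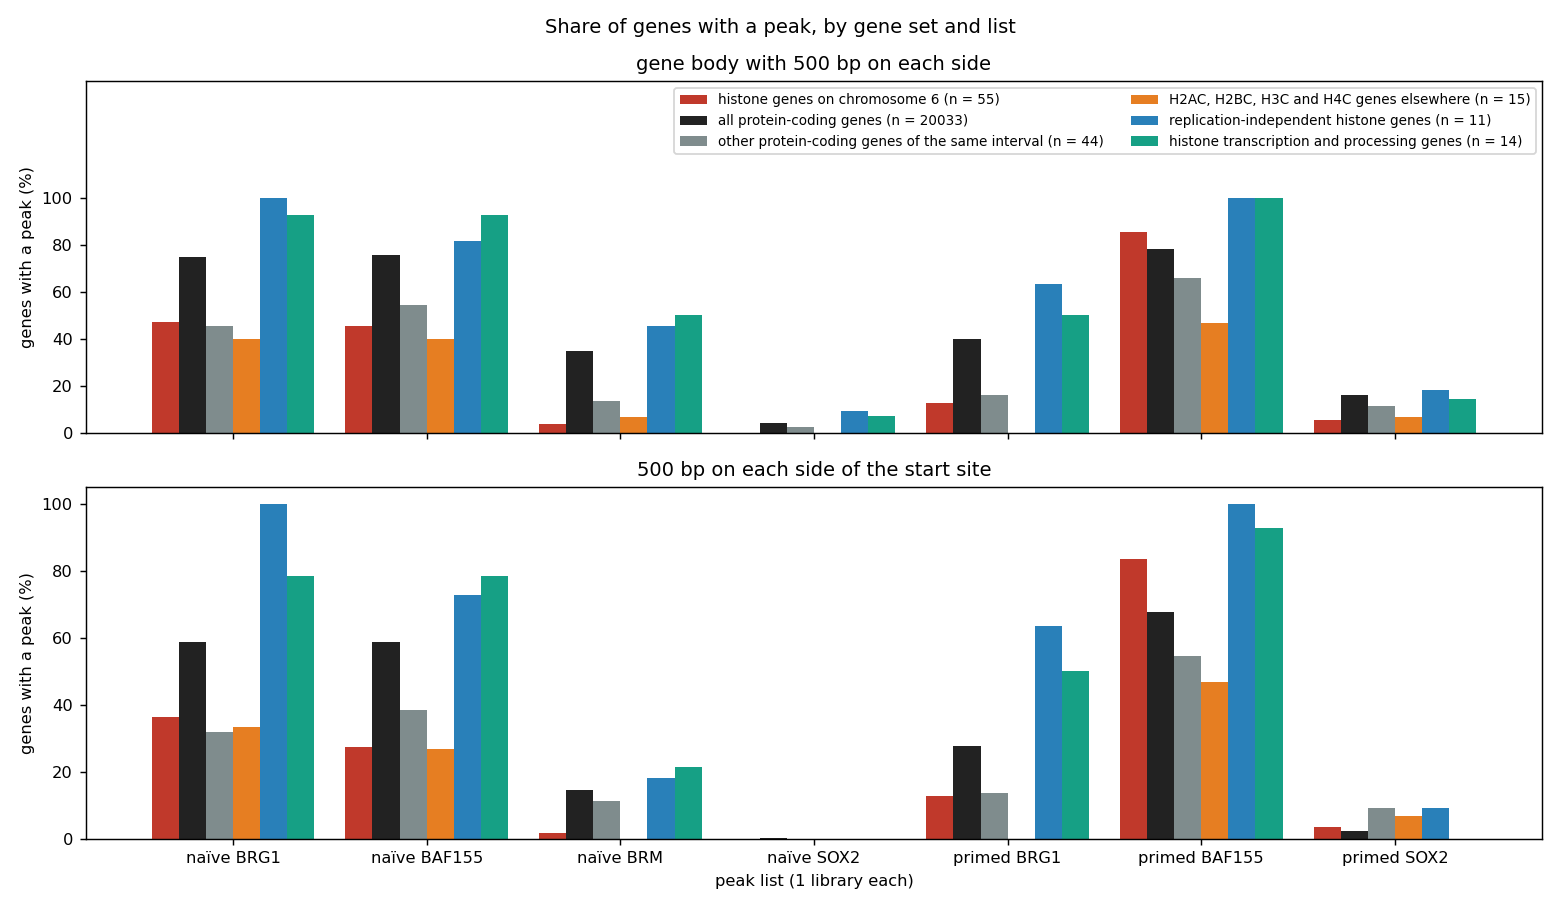
Share of genes with a peak (vertical axis, percent) in 7 peak lists, for the 55 members and 5 other gene sets, over the gene window (upper panel) and within 500 bp of the start site (lower panel). The members stand above all protein-coding genes for primed BAF155 in both panels and below them for naïve BRG1, naïve BAF155, naïve BRM and primed BRG1.

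Set side by side within an antibody, BAF155 was found at more members in primed cells and BRG1 at more members in naïve cells. For BAF155, 25 members (45.5%) had a peak in primed cells only, against 8.28% of all genes, and 3 (5.45%) in naïve cells only, against 5.68%. A further 22 (40.0%) had a BAF155 peak in both states, against 69.9% of all genes, and 5 (9.09%) in neither, against 16.1%. Among the 44 neighbouring genes, 15.9% had a BAF155 peak in primed cells only. For BRG1, 22 members (40.0%) had a peak in naïve cells only, against 36.6% of all genes, and 3 (5.45%) in primed cells only, against 1.51%. A further 4 (7.27%) had a BRG1 peak in both states, against 38.6% of all genes, and 26 (47.3%) in neither, against 23.4%. For SOX2, all 3 members with a peak (5.45%) had it in primed cells only, where 13.4% of all genes fell, and no member had it in naïve cells only, against 1.36%.

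As called, the counts of the 2 antibodies ran in opposite directions, with a BRG1 naïve-only share (40.0%) near that of all genes (36.6%). The naïve BRG1 list was longer than the primed one, whereas the BAF155 lists were of similar length. With the naïve and the primed BRG1 list both held to their 15611 strongest peaks, naïve BRG1 reached 2 members and primed BRG1 7, so the direction turned. It turned over all genes as well, of which 34.5% then had a naïve and 40.1% a primed BRG1 peak. The same rule for BAF155, at 58352 peaks, left 22 members in naïve and 47 in primed cells, and 74.2% and 78.2% of all genes. At −log10 q of at least 3, naïve BAF155 reached 5.45% and primed BAF155 16.4% of members. Over all genes these shares were 38.7% and 50.6%, a gap of similar size. The part of read depth in these counts was not tested.

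Combined over both antibodies, 34 members (61.8%) had a BRG1 or BAF155 peak in naïve cells, against 80.4% of all genes, and 47 (85.5%) in primed cells, against 78.2%. Both states had one in 30 members (54.5%), against 73.4%. Such a peak in naïve cells only was found at 4 members (7.27%) and 7.01% of all genes, so that this share was near the background. The 4 members with such a peak in naïve cells only were H4C2, H3C2, H2BC3 and H3C3, which lie next to each other with H2AC4 in a stretch of the second group. The fold enrichments of their strongest naïve BRG1 or BAF155 peaks over the input were 2.99 (BAF155) in H4C2, 2.39 (BAF155) in H3C2, 2.51 (BRG1) in H2BC3 and 2.62 (BRG1) in H3C3. A further 17 members (30.9%) had a BRG1 or BAF155 peak in primed cells only, against 4.89% of all genes.

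**Figure D3:**
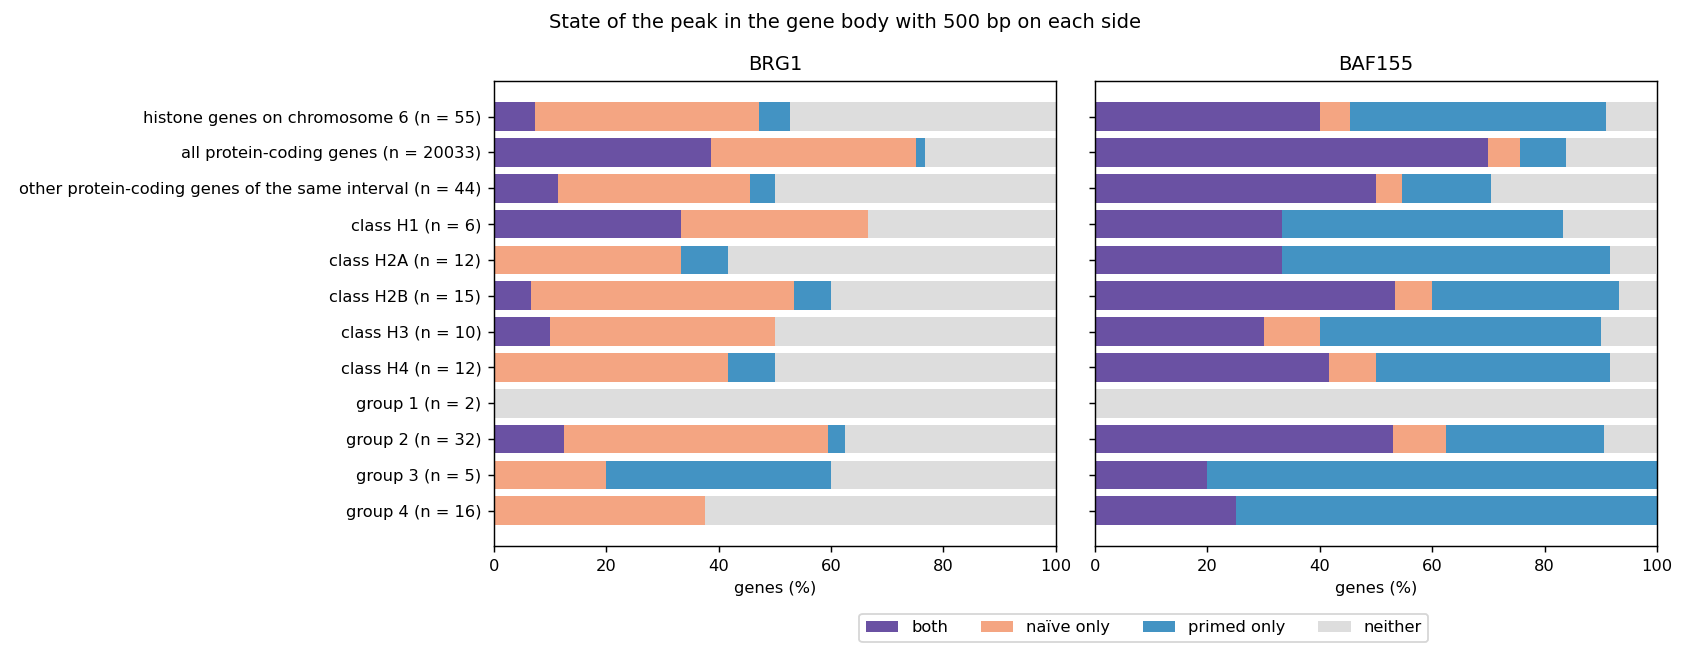
Share of genes (horizontal axis, percent) with a BRG1 peak (left) or a BAF155 peak (right) in both states, in naïve cells only, in primed cells only or in neither, for the members, all protein-coding genes, the neighbouring genes, the 5 histone classes and the 4 groups along the chromosome. The primed-only part of the BAF155 bar is 45.5% in the members and 8.28% in all genes.

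More members had BAF155 in primed than in naïve cells in each of the 5 histone classes. Of the H1 genes, 5 of 6 had a primed and 2 of 6 a naïve BAF155 peak. Of the H2A genes these were 11 and 4 of 12, of the H2B genes 13 and 9 of 15, of the H3 genes 8 and 4 of 10, and of the H4 genes 10 and 6 of 12. BRG1 in naïve cells reached 4 of 6 H1, 4 of 12 H2A, 8 of 15 H2B, 5 of 10 H3 and 5 of 12 H4 genes. Over all genes, 78.2% had a primed BAF155, 75.6% a naïve BAF155 and 75.1% a naïve BRG1 peak. The primed BAF155 shares of the classes, from 80.0% (H3) to 91.7% (H2A), were near or above that of all genes. The naïve shares of every class were below those of all genes. Classes of this size cannot be ranked, since 1 gene moves a share by several percent and divergent H2A and H2B genes share peaks.

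Along the chromosome, BAF155 in primed cells was called at all members of the groups of 5 and 16 genes. In the group of 32 genes its share was near that of all genes. The pair at 25.72 Mb had no peak in any list. In the group of 32 genes, 26 (81.2%) had a primed BAF155 peak, against 78.2% of all genes. A naïve one was found at 20 (62.5%), against 75.6%. A BAF155 peak in primed cells only was found at 28.1% of this group, against 8.28% of all genes. In the group of 5 genes all 5 had a primed and 1 a naïve BAF155 peak. In the group of 16 genes all 16 had a primed BAF155 peak, 4 had a naïve one, and none had a primed BRG1 peak. Its share with BAF155 in primed cells only was 75.0%. The last group also holds 6 of the 7 members in whose windows fewer than 90% of 75-mers occur once in hg38, a length equal to that of the BAF reads. Over the 48 members above that limit, the difference between naïve and primed BAF155 was 33.3 percentage points, primed higher, against 40.0 over all 55.

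No BAF peak was found in either state at 4 of the 55 members (7.27%), against 14.7% of all genes with no peak in the 5 BAF lists, and none of the 4 had a SOX2 peak. H2AC1 (chr6:25723397-25726562, minus strand) and H2BC1 (chr6:25726777-25727345, plus strand) form a divergent pair and encode the testis histones TH2A and TH2B. H1-6 (chr6:26107412-26108135, minus strand) encodes the testis linker histone H1t. H4C7 (chr6:26246611-26246996, minus strand) encodes H4G, a diverged H4 protein. At least 99.9% of the 75-mers in these 4 windows occur once in hg38, and the GC content within 500 bp of their starts was 49.0%, 49.5%, 45.2% and 50.0%. H1-6 and H4C7 lie between members that did carry peaks.

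The peaks that members did carry were weak for their lists. The fold enrichment of a peak, which the authors' peak caller gives as a linear ratio to the input, had a median over members of 2.63 in naïve BRG1 (26 genes), 2.43 in naïve BAF155 (25 genes), 3.35 in primed BRG1 (7 genes) and 2.95 in primed BAF155 (47 genes), taking each gene's strongest peak. Over all genes with a peak, the medians were 3.13, 3.12, 3.56 and 3.52 in the same order. Only 2, 3, 2 and 2 members lay above those medians. Ranked within its own list by −log10 q, where 100 is the strongest, the median member peak stood at the percentile of 44.2 in naïve BRG1, 27.6 in naïve BAF155, 31.3 in primed BRG1 and 32.9 in primed BAF155. The medians over all genes with a peak were 69.9, 72.5, 50.9 and 65.7. Since a longer gene can hold more peaks, the same was taken within 500 bp of the start, where the members' medians were 44.2, 9.74, 31.3 and 29.3 and those of all genes 56.0, 57.7, 38.9 and 55.0. With peaks of −log10 q of at least 3 alone, primed BAF155 fell to 9 members (16.4%).

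**Figure D4:**
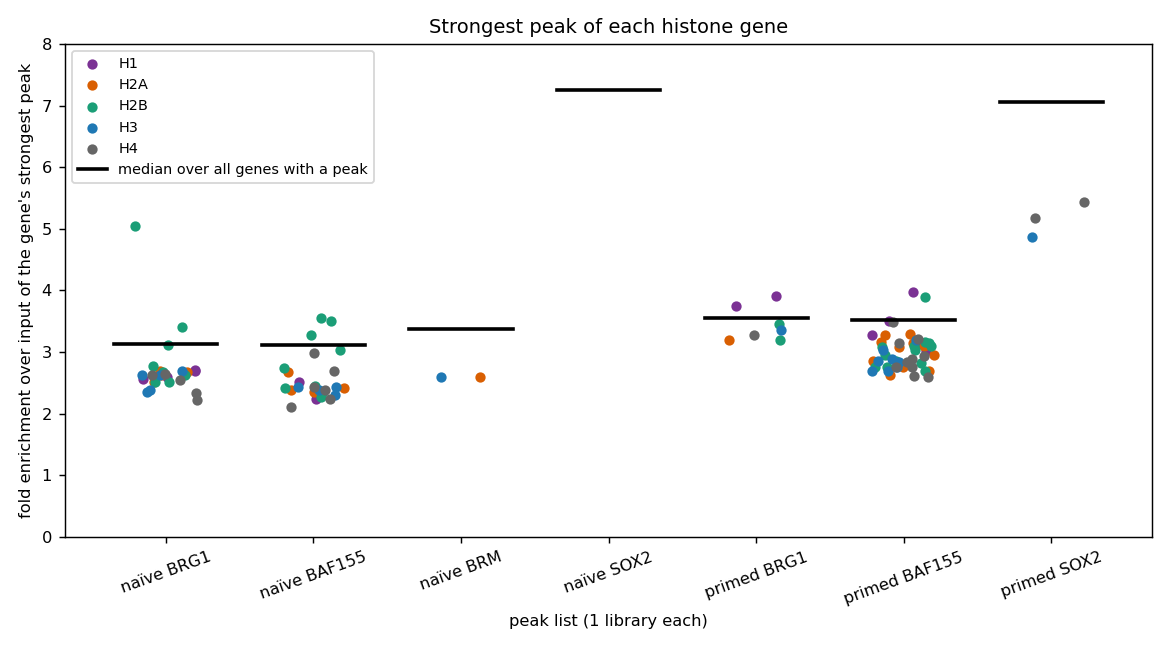
Fold enrichment over the input (vertical axis, linear) of the strongest peak of each histone gene in each list, 1 point per gene coloured by class, with a black line at the median over all protein-coding genes that have a peak in that list. Most points lie below the line, and the H2BC4 point at 5.05 in naïve BRG1 comes from a peak far from its start site.

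BAF155 peaks also sat differently on the genes in the 2 states. In primed BAF155, 41 separate peaks accounted for the 47 members, and 26 of them (63.4%) covered the start site of a member. In naïve BAF155, 5 of 29 peaks (17.2%) did so, while in naïve BRG1 10 of 24 (41.7%) and in primed BRG1 3 of 6 (50.0%) did. The median distance from the peak's midpoint to the nearest member start was 328 bp in primed BAF155, 945 bp in naïve BAF155 and 434 bp in naïve BRG1. Peaks far from any member start, caught only by long annotated bodies, enter these values. More of them were in naïve BAF155, up to 15873 bp away, than in primed BAF155, up to 16180 bp away. Peaks were broader in primed BAF155, with a median of 890 bp and up to 2851 bp, than in naïve BAF155, with a median of 437 bp and up to 1839 bp. For BRG1 the primed peaks were the narrower, with a median of 258 bp against 628 bp. Over the whole lists the medians were 507 bp in primed and 479 bp in naïve BAF155. For BRG1 they were 326 bp in primed and 463 bp in naïve cells, so the primed list was the narrower there too.

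Position by position, the start site itself was covered by primed BAF155 in 31 of 55 members (56.4%), close to the 61.8% of all genes, and by naïve BAF155 in 5 (9.09%) against 45.9%. At 250 bp into the gene the shares were 61.8% and 9.09% of members against 55.1% and 37.1% of all genes. At 1 kb after the start, naïve BAF155 covered 16.4% of members and 10.5% of all genes. Naïve BRG1 covered the start site of 21.8% of members and 45.7% of all genes, and primed BRG1 that of 5.45% and 17.0%. The cover of all genes by naïve BAF155 thus peaked at the start site, and that of the members did not.

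**Figure D5:**
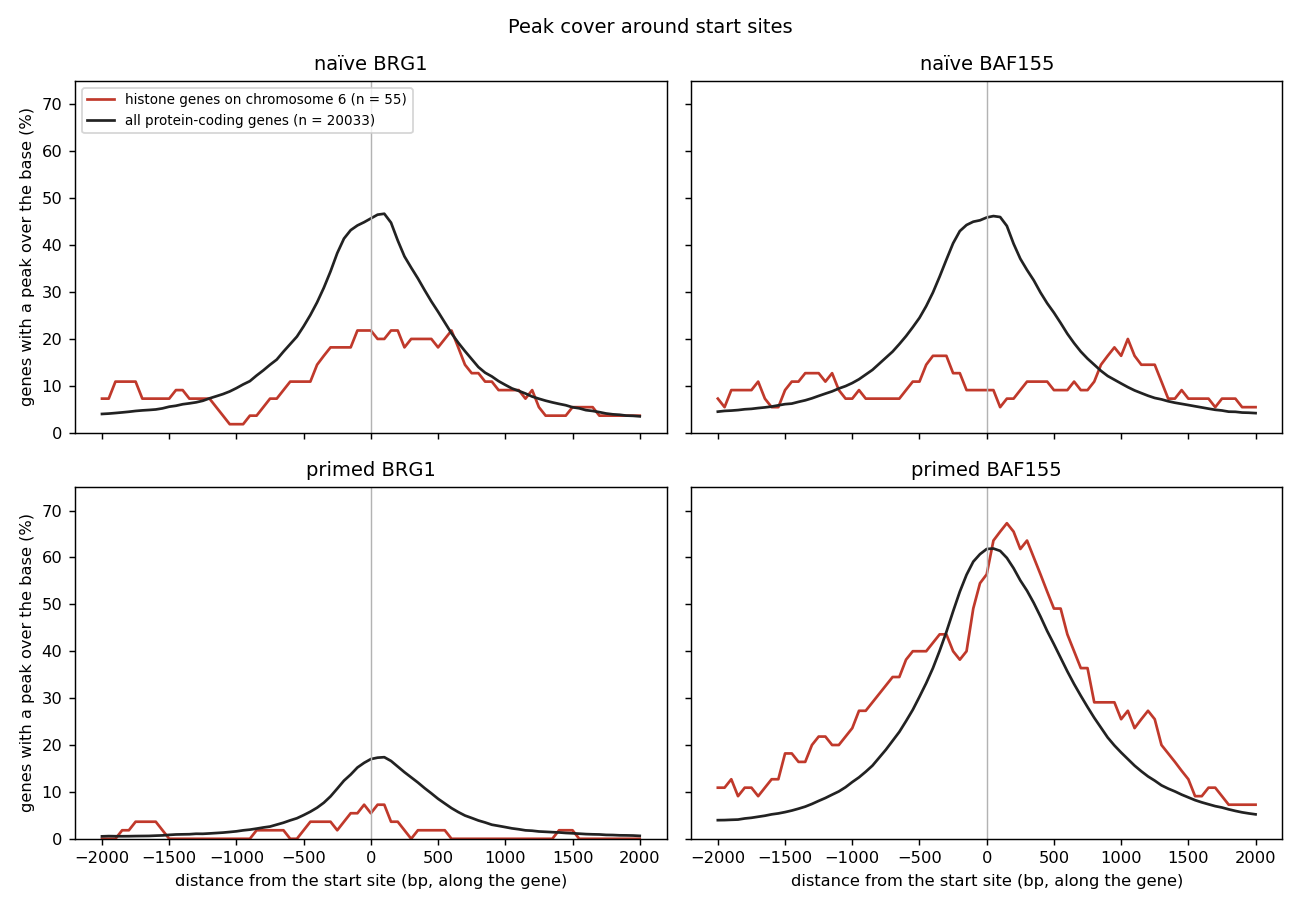
Share of genes with a peak over each position (vertical axis, percent) from 2 kb before to 2 kb after the start site (horizontal axis, bp), in steps of 50 bp, for the 55 members (red) and all protein-coding genes (black). Within 500 bp of the start site the red line reaches the black one in primed BAF155 and not in the other 3 lists, and at the start site in naïve BAF155 it stands at 9.09% against 45.9%.

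The promoter of H1-4 was the strongest BAF155 site of the members in primed cells. H1-4 (chr6:26156329-26157115, plus strand) encodes the linker histone H1.4. Its primed BAF155 peak at chr6:26156179-26156929 had a fold of 3.98 and a −log10 q of 4.93, stood at the percentile of 80.9 in its list, and reached from 150 bp before the start, over the printed TATA box at 24 to 29 bp, to 600 bp after it. The primed BRG1 peak at chr6:26156233-26156611 had a fold of 3.75, and the naïve BRG1 peak at chr6:26156203-26157005 a fold of 2.71. Naïve BAF155, naïve BRM and SOX2 of either state had no peak there. Peaks of the ATPase BRG1 were thus called at H1-4 in both states, and those of the scaffold subunit in primed cells alone. The missing naïve BAF155 call does not show that the subunit was absent there.

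H1-1 (chr6:26017032-26017787, minus strand), another linker histone gene, held the strongest primed BRG1 peak of the members, with a fold of 3.91 at chr6:26017817-26018004, 30 to 217 bp before the start. Its primed BAF155 peak spanned 2851 bp over the whole gene with a fold of 3.51. In naïve cells, BRG1 had a fold of 2.60 over the start and BAF155 one of 2.24 at 1048 to 1359 bp after it, beyond the end of the transcript. H1-3, the H1 gene with the highest naïve BAF155 fold, had values of 2.52 in naïve BAF155, 2.57 in naïve BRG1 and 3.13 in primed BAF155, and no primed BRG1 peak. Both of its naïve peaks lay at 590 bp or more after the start, whereas the primed peak covered the start. H1-2 had a primed BAF155 peak of 3.28 and H1-5 one of 3.02, and neither had a naïve BAF155 peak.

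Among the H2B genes, H2BC6 (chr6:26172059-26184655, plus strand) had the highest primed BAF155 fold, 3.90 at chr6:26183157-26184213 over the start of its canonical transcript. Primed BRG1 at the same start had a fold of 3.46, and naïve BRG1 had 2.74 at 222 to 379 bp before it. H2BC5 had the highest naïve BAF155 fold of the class, 3.55 at the percentile of 91.9, yet that peak lay 2120 to 3179 bp after the start, outside the canonical transcript, with a naïve BRG1 peak of 3.40 beside it. At the H2BC5 start itself, the primed BAF155 peak of 3.10 was the only one. H2BC4, with the longest annotated body, held the highest fold of any member in a BAF list, 5.05 in naïve BRG1, at 36119 bp from its start and 122 bp from the start of another protein-coding gene.

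In the H2A class, H2AC16 (chr6:27865317-27865798, plus strand) led in both states. Its naïve BAF155 peak of 2.67 and naïve BRG1 peak of 2.70 covered the start, as did the primed BAF155 peak of 3.29, which was 249 bp wide. The naïve BRG1 peak there was 2603 bp wide and reached the window of H1-5. H2AC6 followed in primed BAF155 with 3.28, but at 1504 to 2319 bp after the start. Naïve BRM reached 2 members only, H3C2 and H2AC4, through 1 peak between them at chr6:26032381-26032668 with a fold of 2.60 and the percentile of 5.18, so no member had a BRM peak in the top 10% of that list.

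In the H3 class, H3C1 (chr6:26020451-26020958, plus strand) had peaks in the 4 lists of BRG1 and BAF155, with folds of 2.62 in naïve BRG1, 2.44 in naïve BAF155, 3.35 in primed BRG1 and 2.89 in primed BAF155. All 4 began 108 to 345 bp after the start and none covered it, and the BAF155 peaks of both states and the naïve BRG1 peak ran on to H4C1. H3C4 had the highest primed BAF155 fold of the class, 3.19, and no naïve peak. Among the H4 genes, H4C12 led in primed BAF155 with 3.49 over its start and had no naïve peak. H4C2 led in naïve BAF155 with 2.99, at 873 to 1054 bp after the start and beyond the transcript, and it had no primed peak. The 75-mers of the H4C12 window are unique to 73.8%, the lowest value of the members together with H4C11.

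The remaining primed BRG1 peaks lay at H4C4, with a fold of 3.28 over the start, and at H2AC11, with a fold of 3.20 at 31 to 224 bp after the start, where the same peak fell in the window of H2BC11. All 6 separate primed BRG1 peaks of the members overlapped a primed BAF155 peak by at least 25% of either region, as 98.7% of the whole primed BRG1 list did. Naïve BRG1 and naïve BAF155 were both called at 17 members, and 34 had either. Of the 24 naïve BRG1 peaks at members, 11 (45.8%) overlapped a naïve BAF155 peak, against 71.7% of the list, and of the 29 naïve BAF155 peaks 11 (37.9%) overlapped a BRG1 peak, against 66.4%. Across states, 16 of the 29 naïve BAF155 peaks (55.2%) overlapped a primed one, against 40.6% of the list, and 17 of the 41 primed ones (41.5%) overlapped a naïve one, against 42.3%.

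At divergent pairs, whose sequence between the starts is shared, primed BAF155 had a peak between the starts in 6 of 11 pairs, and in 4 of them a single peak covered both starts. Naïve BRG1 had a peak between the starts in 2 pairs and covered both starts in the same 2, which are the pairs printed above. Naïve BAF155, primed BRG1, naïve BRM and SOX2 had none. These pair counts were not taken over divergent genes elsewhere in the genome, so they have no background share. At H2BC8 and H2AC8, the primed BAF155 peak was 2655 bp wide with a fold of 3.09 and the naïve BRG1 peak 622 bp wide with a fold of 2.63. At H2AC15 and H2BC15 the folds were 3.08 and 2.68, and a naïve BAF155 peak of 2.35 lay within the H2BC15 transcript, 111 to 435 bp after its start. The octamer stood within 250 bp before the start in 17 of 41 members (41.5%) with a primed BAF155 peak within 500 bp of the start and in 4 of 9 (44.4%) without one, and within 150 bp in 13 (31.7%) and 4 (44.4%).

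SOX2 was found at 3 members, all in primed cells, and all 3 peaks overlapped a primed BAF155 peak, as 88.4% of the primed SOX2 list did. H4C4 had a fold of 5.43, H4C9 one of 5.17 and H3C12 one of 4.87, against a median of 7.06 over all genes with a primed SOX2 peak. By −log10 q the 3 stood at the percentiles of 17.5, 20.3 and 6.84 of their list. The H4C4 peak lay downstream of the transcript, with its summit 1028 bp after the start, the H4C9 summit lay 455 bp after the start, and the H3C12 summit 110 bp after it. The sequence of the H4C4 peak is shown because it lies outside any member transcript and carries the core SOX letters near its summit. Capitals mark CATTGT or CTTTGT on either strand, which SOX factors are known to bind.
H4C4 (chr6:26188003-26188247, plus strand): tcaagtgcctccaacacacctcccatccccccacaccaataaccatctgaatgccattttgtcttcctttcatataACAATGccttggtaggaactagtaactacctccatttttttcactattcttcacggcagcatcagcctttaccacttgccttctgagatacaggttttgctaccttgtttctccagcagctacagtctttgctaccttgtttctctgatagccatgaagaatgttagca

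A match stood 3 bp before the H4C4 summit and another 9 bp before the H4C9 summit on the plus strand, and the H3C12 peak had none. Over all 9290 primed SOX2 peaks, 43.8% held a match within 50 bp of the summit. With the primed list held to 1940 peaks, the length of the naïve list, none of the 3 members kept its SOX2 peak.

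Base composition moved with the comparison to all genes. GC content within 500 bp of the start ran from 43.9% to 56.6% in the members with a median of 50.0%, against a median of 61.3% over all protein-coding genes. Its part in the lower counts of naïve BAF155, naïve BRG1, primed BRG1 and naïve BRM was not tested.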

How the data were processed

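Immunoprecipitated chromatin of BRG1, BAF155, BRM and SOX2 was sequenced in naïve and primed WIBR3 cells, against input. Per the methods of the study, trim_galore trimmed the reads, Bowtie2 (2.3.4) mapped them to hg38, duplicates were removed with SAMtools (0.1.19) or PICARD, and MACS2 called broad peaks for BAF subunits and narrow peaks for SOX2. The submitters' processing notes also name FastQC (0.10.1). Whether libraries were pooled is not given in the sources used here. The deposited lists give positions, a score, a fold enrichment (a linear ratio over input) and −log10 of the p-value and q-value. These are the authors' own values. Scores and p-values entered no result. Primed BRM and SOX2 replicate 2 came with positions alone. The 4 inputs have no file used here.

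With Python (3.11.15) scripts, whose window overlap and 75-mer counts were tested on simulated data, peaks sharing at least 1 base with a gene window were counted. Values were compared within lists, by percentile. Each group had 1 independent list, so there is no test. The lists hold no read counts, read totals given by the study were not used, and no depth interval is given. The named genes were members without a BAF peak, with a SOX2 peak, with a primed BRG1 peak or with a naïve BRM peak in the top 10% of its list, and the members of each class with the highest naïve and primed BAF155 fold. H1-4 promoter letters, the divergent pairs, SOX2 peak letters and other members named were chosen after their values were seen. The members and lists were chosen with earlier results of these data known.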

Additional observations from a re-analysis of the deposited data

How the results depend on the processing

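Of 114 alternative values, 86 stayed within 1.5 times the reported value, 27 moved further and 1 reversed. Some of the 86 could not have moved. The cut to equal length leaves the shorter list as it is, and naïve SOX2, at 0, cannot fall under a stricter limit. The reversed value was the naïve minus primed difference of BRG1, which went from 34.5 to -9.09 percentage points with the longer list cut to as many top-ranked peaks as the shorter one holds. That setting also left 3.64% of members with a naïve BRG1 peak and, for primed SOX2 and its difference, 0. With −log10 q of at least 3, shares were 3.64% (naïve BRG1), 5.45% (naïve BAF155), 0 (naïve BRM), 1.82% (primed BRG1) and 16.4% (primed BAF155). The differences were 1.82 (BRG1) and -10.9 (BAF155). Over all genes, 38.7% then had a naïve and 50.6% a primed BAF155 peak, so the BAF155 gap of the members was similar to that of all genes. With a fold of at least 4, only 1.82% of members kept a naïve BRG1 peak, the other 4 BAF lists and the BAF155 difference came to 0, and the BRG1 difference to 1.82. Naïve BAF155 fell to 29.1% over the gene body alone and 27.3% within 500 bp of the start. Naïve BRM fell to 0 over the gene body alone and to 1.82% within 500 bp of the start or by peak midpoint. The cause of these changes was not tested. Counted over 36 loci in place of 55 genes, the 3 with primed SOX2 made 8.33%, and the difference -8.33. The canonical transcript window was added after the data were seen and moved no share beyond 1.5 times. Ranked by fold, the median percentiles of naïve BRG1, BAF155 and BRM peaks were 16.7, 5.09 and 1.83. Leaving out either SOX2 library changed nothing, since both lists hold the same coordinates, with 0 in naïve and 5.45% in primed cells and a difference of -5.45. No paired analysis was possible because each state has 1 independent list per antibody. List length limits every comparison of counts between lists, and a missing peak is a call under a threshold.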

Other observations

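The primed BRM list held 167 regions with positions alone and was kept out of the comparisons above. One of its regions fell on a member, at chr6:27866969-27867185 within the H1-5 transcript, 403 to 619 bp after the start. It was the only region of that list between 25 and 29 Mb of chromosome 6, and 0.150% of all protein-coding genes had such a region in their window. No naïve BRM peak lay at H1-5, whose window held a naïve BRG1 and a primed BAF155 peak.

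Outside chromosome 6, the 15 H2AC, H2BC, H3C and H4C genes fell into genes with peaks in several BAF lists and genes with none. H2AC25 and H2BC26 had peaks of naïve BRG1, naïve BAF155 and primed BAF155 within 500 bp of their starts, and H2AC21 had these and a primed SOX2 peak there. H3C13, H4C14, H3C14, H2AC18, H2AC19, H3C15, H4C15 and H2BC12L had no peak in any of the 7 lists. The uniqueness of sequence around these genes was not computed. Naïve BRM reached 1 of the 15, H2BC26.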
